A study of Mus musculus with 27 samples.

Results

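In Setdb1 cKO iMEFs in which Dnmt1 had been knocked down, the added deletion of Setdb1 came with higher VL30 elements, with higher levels of most IFN-induced genes, few of which passed the test with all libraries, and with lower levels of many genes of the extracellular matrix and of cholesterol synthesis. The comparison was made between the 2 libraries labelled 4OHT + siDnmt1 and the 2 libraries labelled siDnmt1, which are 4 of the 27 libraries of the series. The 4 libraries were chosen by their labels, not by measured values. The cells are immortalized mouse embryonic fibroblasts that carry a conditional Setdb1 allele and come from 1 recloned line, and 4-hydroxytamoxifen (4OHT) triggers the deletion. Cells of the siDnmt1 group were transfected with siRNA against Dnmt1 and not given 4OHT, whereas cells of the 4OHT + siDnmt1 group got the same siRNA and 4OHT from day 0. All were harvested at day 6. The siCtrl and 4OHT + siCtrl groups, with 2 libraries each, show what 4OHT did where Dnmt1 was not knocked down. The labels of the libraries named 4OHT + siCtrl here give 4OHT only. Their control siRNA is taken from the study's description of the design and cannot be checked from the labels. The labels do not say that replicates were separate cultures, so p-values measure only the spread between these libraries, which may be technical. All 4OHT libraries differ from their controls both in the deletion and in exposure to the compound, and these cannot be told apart.

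Setdb1 is a histone methyltransferase that places trimethylation on lysine 9 of histone H3 (H3K9me3), and in many cells this mark keeps endogenous retroviruses (ERVs) silent. Dnmt1 copies DNA methylation to the new strand at replication, which silences ERVs and germline genes by another route. Cells sense double-stranded RNA, such as that of transcribed ERVs, through cytosolic receptors that switch on type I interferon (IFN), and IFN in turn raises a large set of antiviral genes through factors that include Stat2 and Irf9.

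Expression was measured by mRNA sequencing and is given as FPKM, fragments per kilobase of transcript and per unit of library depth. The depth, worked out from the confidence intervals in the files, was 15.1 to 17.1 M fragments in each library. The test was limma on log2(FPKM + 0.1), which understates the fold change of low genes, over the 10772 genes with at least 1 FPKM in at least 2 of the 8 libraries of this experiment. A gene was called at an adjusted p-value under 0.05 (Benjamini-Hochberg, limma) and a fold change of at least 2. Fibroblast markers Col1a1, Col1a2 and Vim were present in every library. The summed level of 12 fibroblast markers was 3747 to 3923 FPKM in siDnmt1 and lower, 2304 to 2325 FPKM, in 4OHT + siDnmt1. Of the haematopoietic markers, Cd3e, which marks T cells, was listed at 0 in all 8 libraries, but Cd34 was not. Summed over 9 such markers, mostly Cd34, the level was 241.3 to 243.4 FPKM in siDnmt1. In 4OHT + siDnmt1 it was 135.9 to 166.9 FPKM. The summed level of 8 epithelial markers ran from 88.4 to 88.5 FPKM in siDnmt1 and from 130.0 to 162.4 FPKM in 4OHT + siDnmt1. The part of other cells in the results was not tested.

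The knockdown was visible and the deletion was not. Dnmt1 was at 80.5 and 73.4 FPKM in siCtrl, at 12.2 and 10.6 FPKM in siDnmt1, and at 12.2 and 11.4 FPKM in 4OHT + siDnmt1, and the difference between the last 2 groups was smaller than its standard error (log2 fold change 0.06, standard error 0.11, adjusted p = 0.73, limma). Setdb1 was at 6.08 and 5.54 FPKM in siDnmt1 and at 5.39 and 6.94 FPKM in 4OHT + siDnmt1 (log2 fold change 0.07, standard error 0.24, adjusted p = 0.85, limma), with a sign that depended on scaling. A gene-level value covers exons that the deletion does not remove, so it does not check the deletion.

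The library named 4OHT + siCtrl replicate 2 here stood apart from replicate 1. Its 60 tested IFN-induced genes lay at a median of 0.01 on the log2 scale over the siCtrl mean, against 3.09 in replicate 1, and Irf7 was at 14.6 and 279 FPKM in the 2 libraries. Cd209c (15.2 and 15.8 FPKM) and VL30 class I elements (22.5 and 13.0 element FPKM) were raised in both. This library is not one of the 4 compared, but all 8 libraries share 1 estimate of the spread. The results that rest on it are therefore given with and without it.

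With 4OHT added to siDnmt1, 368 genes were called higher (3.42% of genes tested) and 248 lower (2.3%), and 3674 had an unadjusted p-value under 0.05. Without 4OHT + siCtrl replicate 2, 633 were called higher (5.9%) and 346 lower (3.23%), and with only the 4 compared libraries in the fit, 561 were called higher (5.36%) and 291 lower (2.78%). The counts fell where a library of the siCtrl, siDnmt1 or 4OHT + siDnmt1 group was left out, to 22 higher and 28 lower without siDnmt1 replicate 1, 27 and 34 without siDnmt1 replicate 2, 65 and 134 without 4OHT + siDnmt1 replicate 1, 200 and 200 without 4OHT + siDnmt1 replicate 2, 98 and 104 without siCtrl replicate 1 and 100 and 104 without siCtrl replicate 2, and they were 634 and 348 without 4OHT + siCtrl replicate 1. The median log2 fold change of all genes was 0.14, and scalings that set it near 0 turned the balance to 223 higher and 310 lower (median-ratio scaling) or 237 higher and 375 lower (quantile normalization). Of 68 named genes called, 13 could be tested under all 19 alternatives and were called in each. These were Cd209c, 2810474O19Rik, Mrpl35 and Ubxn7 among those that rose, and Fbn2, Col6a1, Col6a2, Dcn, Tgfbi, Cyp51, Fdps, Nsdhl and Sqle among those that fell. Another 8 were called wherever they were tested but could not be tested under some alternatives, and 47 lost the call under at least 1, among them the IFN-induced Mx1, Oasl1, Rsad2, Slfn2 and Uba7, with adjusted p-values (limma) of up to 0.212 for Mx1.

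**Figure D1:**
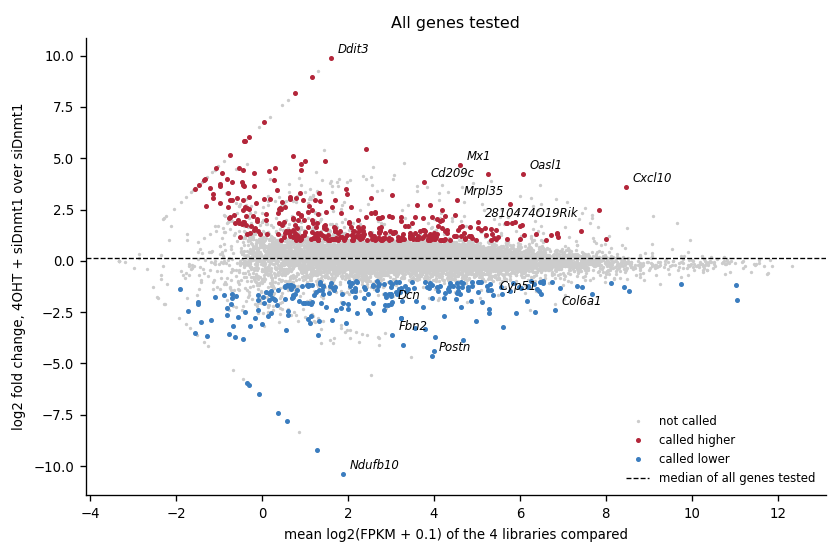
Log2 fold change of 4OHT + siDnmt1 over siDnmt1 (vertical axis) against the mean log2(FPKM + 0.1) of the 4 libraries (horizontal axis) for the 10772 genes tested, with 368 called higher in red, 248 called lower in blue and the median of all genes, 0.14, as a dashed line. The points on the outer diagonals, such as Ddit3 and Ndufb10, are genes listed at 0 in both libraries of 1 group.

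Among called genes above 0 FPKM in all 8 libraries, the largest rises were those of IFN-induced and of little expressed genes. Mx1, a GTPase that blocks viral ribonucleoproteins, went from 4.76 and 4.70 FPKM to 182 and 83.5 FPKM (log2 fold change 4.68, standard error 1.14, adjusted p = 0.046, limma; 0.0019 without 4OHT + siCtrl replicate 2). Oasl1, a member of the 2′-5′ oligoadenylate synthetase family, went from 13.9 and 17.0 FPKM to 348 and 248 FPKM (log2 fold change 4.25, standard error 0.79, adjusted p = 0.026, limma). Cd209c, a C-type lectin gene whose assembled locus overlaps an element of the MMERVK10C family, rose from 3.17 and 3.90 FPKM to 52.8 and 49.2 FPKM (log2 fold change 3.82, standard error 0.26, adjusted p = 0.0016, limma), and it was called under all 19 alternatives tried for it. Both 4OHT + siDnmt1 libraries were above both siDnmt1 libraries for each of these genes, as for 47.5% of all genes tested. The retinoic acid hydroxylase Cyp26c1 reached 5.16 and 4.93 FPKM from 0.22 and 0.09 FPKM. Lag3, an inhibitory receptor of lymphocytes, reached 4.51 and 4.73 FPKM from 0.17 and 0.27 FPKM, and the laminin chain Lama3, which passed the filter only through the 4OHT + siDnmt1 libraries, reached 4.16 and 1.51 FPKM from 0.12 and 0.11 FPKM. Coch, Hdc (histidine decarboxylase), Tacr2 (a tachykinin receptor) and Adap1 also belonged to the 12 called genes that were highest by this measure, at 3.31 for Adap1 to 3.49 for Coch, all from under 1.3 FPKM in siDnmt1. Cyp26c1, Lag3, Hdc, Tacr2 and Adap1, like Lama3, passed the filter only through the 4OHT + siDnmt1 libraries. For these genes the filter favoured a rise.

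The largest falls among called genes above 0 FPKM in all 8 libraries included 2 genes of the matrix list, Postn and Col6a3. Postn (periostin) fell from 78.5 and 75.1 FPKM to 1.05 and 8.45 FPKM (log2 fold change -4.62, standard error 0.95, adjusted p = 0.033, limma). The chemokine gene Cxcl14 fell from 73.4 and 72.1 FPKM to 6.04 and 1.88 FPKM (log2 fold change -4.38, standard error 0.49, adjusted p = 0.01, limma). Fbn2, which encodes the microfibril protein fibrillin 2, fell from 27.4 and 29.6 FPKM to 2.19 and 2.27 FPKM (log2 fold change -3.62, standard error 0.11, adjusted p = 6.6e-05, limma). The 2 libraries of each group were close for Fbn2 and wide apart for Postn. Lrrc17, Mgp (matrix Gla protein), Dpt (dermatopontin), Lama4, Medag, Igf1, D030068K23Rik, Epha3 and Col6a3 completed the 12 lowest, with log2 fold changes from -4.11 for Lrrc17 to -3.34 for Col6a3. Dpt and D030068K23Rik reached 1 FPKM only in the siDnmt1 libraries, so the filter favoured a fall. Of all 537 called genes above 0 FPKM in the 8 libraries, 537 did not overlap between the 2 groups, nor did 71.5% of all genes tested in either direction. With 2 libraries in each group a called gene can hardly overlap, so this count adds no support to the calls.

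Another 13 called genes were listed at 0 in both siDnmt1 libraries and 8 in both 4OHT + siDnmt1 libraries. Ddit3, a transcription factor of the stress response, was listed at 0 in all 4 libraries without 4OHT and at 113 and 37.3 FPKM in 4OHT + siCtrl and 104 and 83.5 FPKM in 4OHT + siDnmt1. Surf2 and Ethe1 were listed at 0 in siDnmt1 and at 47.2 and 52.5 FPKM and at 31.7 and 27.1 FPKM in 4OHT + siDnmt1. Ndufb10 (129 and 143 FPKM in siDnmt1), Kdelr3 (61.6 and 56.8 FPKM) and Ten1 (20.3 and 25.1 FPKM) were listed at 0 in 4OHT + siDnmt1. Ndufb10 encodes a subunit of respiratory complex I, which these cells use, and it was also listed at 0 in siCtrl, so a value of 0 can be a failed estimate and no fold is given for these genes.

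Most IFN genes were higher with 4OHT than with siDnmt1 alone, but few passed the test with all 8 libraries. Of 95 IFN-induced genes listed, 60 were tested, with a median log2 fold change of 2.46 against 0.14 for all genes, and in 55 of them both 4OHT + siDnmt1 libraries were above both siDnmt1 libraries, as in 47.5% of all genes tested. With all 8 libraries, 7 were called higher (11.7%, against 3.42% of all genes) and 1 lower (1.67%, against 2.3%). An unadjusted p-value under 0.05 was found for 39. Without 4OHT + siCtrl replicate 2, 54 of 60 were called higher and 1 lower, against 5.9% and 3.23% of all genes. With only the 4 compared libraries it was 53 and 1 of 59, against 5.36% and 2.78%. The 4OHT + siDnmt1 libraries lay at medians of 2.82 and 2.03 on the log2 scale over the siDnmt1 mean, with replicate 1 the higher. Of the 60, 5 reached the filter only through the 4OHT + siDnmt1 libraries, among them Slfn2 and Gbp6, which favoured a rise. Another 33 list members lay in loci that Cufflinks joined with a neighbour in some libraries and were not tested.

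The ligand gene Ifnb1, which encodes IFN-β, was at 0.74 and 0.21 FPKM in siDnmt1 and at 26.2 and 8.54 FPKM in 4OHT + siDnmt1 (log2 fold change 4.88, standard error 0.92, adjusted p = 0.028, limma). It was listed at 0 in both siCtrl libraries and reached 4.08 and 0.73 FPKM in 4OHT + siCtrl. Ifna4, an IFN-α gene, was at 0.14 and 0 FPKM in siDnmt1 and at 7.72 and 1.94 FPKM in 4OHT + siDnmt1, with an adjusted p of 0.057 (limma). Both ligand genes passed the filter only through the 4OHT + siDnmt1 libraries. None of the 7 receptor and kinase genes tested was called by limma and 0 had an unadjusted p-value under 0.05, with log2 fold changes from -0.02 to 0.28, which includes the receptor genes Ifnar1 and Ifnar2 and the kinase gene Jak2.

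Among sensors of nucleic acid, Zbp1 was at 26.4 and 23.03 FPKM in siDnmt1 and at 414 and 240.5 FPKM in 4OHT + siDnmt1, and the RNA helicase gene Ifih1 at 14.9 and 15.0 FPKM and 85.9 and 82.9 FPKM. Neither passed the test with all 8 libraries (adjusted p = 0.13 and 0.057, limma), and both did without 4OHT + siCtrl replicate 2 (0.0016 and 0.00011). Mb21d1, which encodes the DNA sensor cGAS, rose with all 8 libraries (log2 fold change 1.36, standard error 0.30, adjusted p = 0.038, limma). Tmem173, the adaptor of that sensor, had a log2 fold change of 0.07.

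None of the 4 tested transcription factor genes was called by limma with all 8 libraries, though 3 had an unadjusted p-value under 0.05. Without 4OHT + siCtrl replicate 2, 4 were called higher, against 5.9% of all genes. Irf7, which amplifies IFN transcription, was at 41.9 and 39.4 FPKM in siDnmt1 and at 369 and 290.5 FPKM in 4OHT + siDnmt1, an 8.12-fold difference of means (log2 fold change 3.01, standard error 1.21, adjusted p = 0.14, limma; 0.00033 without 4OHT + siCtrl replicate 2). Stat2 was at 20.98 and 20.03 FPKM and at 138 and 92.1 FPKM. Irf9 shared its assembled locus with Rnf31 in 6 of the libraries, and this joined locus went from 58.9 and 56.7 FPKM to 154 and 118 FPKM. Both 4OHT + siDnmt1 libraries were above both siDnmt1 libraries for these genes, as for 47.5% of all genes tested.

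Isg15, a ubiquitin-like protein that is linked to other proteins after IFN, was at 264 and 251 FPKM in siDnmt1 and at 1464 and 952 FPKM in 4OHT + siDnmt1. Its activating enzyme gene Uba7 rose from 4.74 and 4.50 FPKM to 47.5 and 20.2 FPKM (log2 fold change 2.72, standard error 0.58, adjusted p = 0.036, limma), and its protease gene Usp18 was at 30.3 and 31.7 FPKM and at 216 and 186 FPKM (adjusted p = 0.23, limma; 0.00041 without 4OHT + siCtrl replicate 2). Rsad2, the antiviral enzyme viperin, rose from 9.44 and 8.23 FPKM to 253 and 109 FPKM (log2 fold change 4.22, standard error 0.98, adjusted p = 0.042, limma). Isg20, an exonuclease, and Slfn2 were the other genes called higher. Ifitm1 fell from 14.3 and 12.7 FPKM to 3.14 and 4.73 FPKM (log2 fold change -1.78, standard error 0.22, adjusted p = 0.012, limma), the only list member called lower. For antigen presentation, Tap1 was at 12.9 and 13.7 FPKM and at 125 and 66.2 FPKM, and Psmb9 was listed at 0 in 1 of the 4OHT + siDnmt1 libraries.

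**Figure D2:**
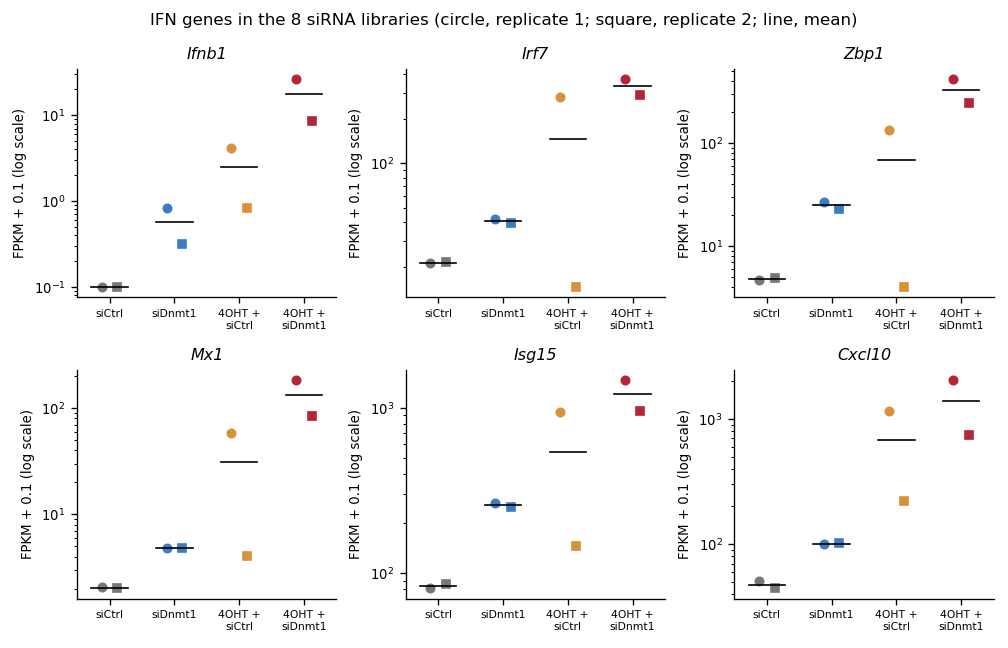
FPKM + 0.1 on a log axis for 6 IFN genes in the 2 libraries of each of the 4 groups, with the mean as a line. Both 4OHT + siDnmt1 libraries are above both siDnmt1 libraries in each panel, as for 47.5% of all genes tested. The square of 4OHT + siCtrl, replicate 2, lies near the siCtrl points for Irf7 (14.6 FPKM) and Zbp1.

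Promoters of the IFN genes were searched for the core of the interferon-stimulated response element (ISRE), a site bound by Irf9 and its partners, taken as GAAA, any 2 bases and GAAA again, on either strand, within 250 bases before and 50 bases after the start in RefSeq (GRCm38.p6). Of 72 list members with a promoter there, 34 held a match (47.2%), against 3.99% of all 27025 genes with a promoter and 3.44% of all 32851 promoters. Among tested genes with a promoter, the share was 35.7% of 42 list members and 3.44% of all 8070. Among genes called higher it was 5.58% of 269, among those called higher without 4OHT + siCtrl replicate 2 it was 9.98% of 451, and among genes called lower it was 4.46% of 157. The list is defined by response to IFN, so its share is a description. The stretches around the matches are shown for 3 of these genes, from the effector and conjugation groups, and for Cxcl10 of the chemokine list. Capitals mark the matches, and overlapping matches in Isg15 run together.
Isg15, chr4:156200835-156200936, minus strand: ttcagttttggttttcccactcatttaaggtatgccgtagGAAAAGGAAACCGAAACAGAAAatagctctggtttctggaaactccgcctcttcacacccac
Rsad2, chr12:26456523-26456612, minus strand: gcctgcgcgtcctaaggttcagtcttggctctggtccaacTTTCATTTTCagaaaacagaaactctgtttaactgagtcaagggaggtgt
Ifit1, chr19:34640745-34640853, plus strand: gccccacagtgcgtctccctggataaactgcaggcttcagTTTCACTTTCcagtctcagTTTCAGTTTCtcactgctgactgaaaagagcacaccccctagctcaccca
Cxcl10, chr5:92349053-92349139, minus strand: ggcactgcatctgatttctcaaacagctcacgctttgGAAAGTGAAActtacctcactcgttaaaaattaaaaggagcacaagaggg
Isg15 held 3 overlapping matches, Ifit1 held 2, and the others 1 each. Ifit1, whose protein binds foreign RNA caps, was at 75.8 and 72.3 FPKM in siDnmt1 and at 538 and 374 FPKM in 4OHT + siDnmt1. No match was found in the listed windows of Ifnb1, Irf7 and Oasl1.

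The chemokine gene Cxcl10, an IFN target that draws T cells, rose from 99.4 and 102 FPKM to 2036 and 746 FPKM (log2 fold change 3.61, standard error 0.79, adjusted p = 0.038, limma). Cxcl12, a constitutive stromal chemokine, fell from 92.6 and 83.9 FPKM to 10.97 and 27.1 FPKM (log2 fold change -2.35, standard error 0.41, adjusted p = 0.024, limma). These were the 2 called genes of 18 tested chemokine and NF-kB response genes (5.56% in each direction, against 3.42% higher and 2.3% lower over all genes), whose median was 0.60. None of the 10 NF-kB response genes was called by limma with all 8 libraries, though 6 had an unadjusted p-value under 0.05. Without 4OHT + siCtrl replicate 2, 3 were called higher, against 5.9% of all genes. Among them was the inhibitor gene Tnfaip3, at 6.42 and 6.82 FPKM and at 17.6 and 17.2 FPKM (adjusted p = 0.12, limma; 0.0038 without that library).

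Of 41 tested matrix and contractile genes, 14 were called lower (34.1%, against 2.3% of all genes) and 0 higher, with a median of -1.14, and both 4OHT + siDnmt1 libraries were below both siDnmt1 libraries for 36 of them, as for 24% of all genes tested. Without 4OHT + siCtrl replicate 2, 21 were called lower, against 3.23% of all genes. Among 14 collagen genes, 6 were called lower (42.9%) with all 8 libraries. Col6a1 fell from 259.9 and 256 FPKM to 55.5 and 44.3 FPKM (log2 fold change -2.38, standard error 0.11, adjusted p = 0.00042, limma), and Col6a2, whose product joins it in collagen VI, fell from 197 and 195 FPKM to 39.97 and 29.3 FPKM (log2 fold change -2.51, standard error 0.15, adjusted p = 0.00096, limma). Col1a1 fell from 598 and 644 FPKM to 243 and 202 FPKM. The third chain of collagen VI, Col6a3, fell from 43.2 and 44.4 FPKM to 2.62 and 6.76 FPKM.

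Among other matrix genes, 7 of 17 were called lower (41.2%, against 2.3% of all genes). Dcn (decorin, a small proteoglycan that binds collagen) fell from 16.3 FPKM in each siDnmt1 library to 3.92 and 3.63 FPKM (log2 fold change -2.08, standard error 0.11, adjusted p = 0.00061, limma). Thbs2 (thrombospondin 2) fell from 95.1 and 92.8 FPKM to 15.7 and 16.4 FPKM, which is close to its 16.4 and 15.5 FPKM in siCtrl. Of 10 contractile and TGF-beta response genes, 1 was called lower, Tgfbi (10%, against 2.3% of all genes). Tgfbi fell from 54.4 and 53.9 FPKM to 9.73 and 12.9 FPKM (log2 fold change -2.26, standard error 0.14, adjusted p = 0.0011, limma). Acta2, smooth muscle actin, was at 249 and 244 FPKM and at 48.4 and 97.0 FPKM (adjusted p = 0.14, limma). Of 10 tested fibroblast markers, 3 were called lower (30%, against 2.3% of all genes), Col1a1, Col1a2 and Thy1, with a median of -1.05.

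Cholesterol genes were lower, with close replicates in those called. Of 21 tested, 5 were called lower (23.8%, against 2.3% of all genes) and 0 higher, and the median was -0.85. In 20 the 4OHT + siDnmt1 libraries lay below the siDnmt1 libraries, as in 24% of all genes. Cyp51, lanosterol demethylase, fell from 73.5 and 74.1 FPKM to 23.9 and 21.9 FPKM (log2 fold change -1.68, standard error 0.09, adjusted p = 0.00068, limma). Fdps fell from 140.4 and 133 FPKM to 56.7 and 48.8 FPKM, Nsdhl from 26.2 and 26.0 FPKM to 10.4 and 10.7 FPKM, and Sqle (squalene epoxidase) from 80.8 and 84.3 FPKM to 39.3 and 39.0 FPKM. Insig1, a sterol-regulated brake on the pathway, fell from 43.9 and 40.7 FPKM to 13.5 and 14.4 FPKM (log2 fold change -1.59, standard error 0.30, adjusted p = 0.027, limma).

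Of 16 tested germline genes, 12 were called higher in siDnmt1 over siCtrl, as were 2.4% of all genes tested, in a comparison that shares the siDnmt1 libraries with the one described here. Members such as Dazl and Tuba3a passed the filter only through libraries with Dnmt1 siRNA. The filter thus favoured a rise over siCtrl, and this count is no support for one. With 4OHT added, 3 of the 16 were called lower and 1 higher. The 3 called lower are among 6 members that passed the filter only through the siDnmt1 libraries, and the 1 called higher, Tdrd9, passed only through the 4OHT + siDnmt1 libraries, so the filter favoured these directions and the list's count is no support for one. Taf7l, a testis form of a TFIID subunit, was listed at 0 in siCtrl, reached 5.48 and 5.57 FPKM in siDnmt1 and fell to 0.80 and 0.60 FPKM (log2 fold change -2.83, standard error 0.37, adjusted p = 0.013, limma). Tex13 and Slc25a31 were the others called lower. Dazl, an RNA-binding protein of germ cells, was at 3.15 and 2.30 FPKM and at 1.58 and 1.48 FPKM (adjusted p = 0.19, limma). Tdrd9, a piRNA pathway helicase whose locus overlaps a VL30 class I element, rose from 0.34 and 0.17 FPKM to 2.43 and 2.24 FPKM (log2 fold change 2.83, standard error 0.42, adjusted p = 0.017, limma). Of 14 tested imprinted genes, only Dlk1 was called (7.14%, against 2.3% of all genes called lower), and it fell from 89.8 and 93.2 FPKM to 25.8 and 41.5 FPKM (log2 fold change -1.48, standard error 0.30, adjusted p = 0.032, limma).

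Of the genes for Setdb1 and its partners in H3K9 silencing, 3 of 9 were called higher, against 3.42% of all genes, and 0 lower. 2810474O19Rik, now named Resf1, rose from 17.2 and 16.4 FPKM to 66.0 and 61.2 FPKM (log2 fold change 1.91, standard error 0.11, adjusted p = 0.00073, limma), about as in 4OHT + siCtrl (76.1 and 65.9 FPKM). Zfp809, a zinc finger protein that recruits Trim28 to retroviral sequences, rose from 6.94 and 7.14 FPKM to 15.6 and 16.9 FPKM (log2 fold change 1.19, standard error 0.20, adjusted p = 0.022, limma), and Morc3 had a log2 fold change of 1.04. Trim28 was at 99.0 and 101 FPKM and at 118 and 120.1 FPKM (adjusted p = 0.37, limma). Of 13 DNA methylation genes (7.69% called higher, against 3.42% of all genes), Mbd4, a thymine glycosylase that binds methylated CpG, was called (log2 fold change 1.37, standard error 0.20, adjusted p = 0.017, limma).

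Of 25 p53 genes, 5 were called higher (20%, against 3.42% of all genes) and 0 lower, with a median of 0.52. Cdkn1a, the cyclin-dependent kinase inhibitor p21, rose from 19.98 and 20.7 FPKM to 56.2 and 59.0 FPKM (log2 fold change 1.496, standard error 0.25, adjusted p = 0.022, limma), which compares with 47.7 and 47.5 FPKM in siCtrl. Mdm2, the ubiquitin ligase of p53, rose from 31.8 and 28.7 FPKM to 63.5 and 61.1 FPKM, and Trp53inp1, Sesn2 and Ddit4l were the others called. Of 34 proliferation genes, Ccne1 (cyclin E1) was called, from 13.4 and 15.5 FPKM to 43.2 and 25.8 FPKM, and the median of the list was -0.02. That is 2.94% of the list, near the 3.42% of all genes called higher. Of 27 ERK response genes, Fosl1, an AP-1 subunit, rose from 17.1 and 15.1 FPKM to 75.4 and 34.1 FPKM, and Spry1 and Ier3 were called lower. These are 3.7% and 7.41% of the list, against 3.42% and 2.3% of all genes. Ets1 was at 17.8 and 17.0 FPKM and at 26.0 and 24.0 FPKM (adjusted p = 0.057, limma), and Elk1 had no locus of its own in all libraries and was not tested. Of 23 Atf4 stress genes, Ddit3 and Sesn2 were called (8.7%, against 3.42% of all genes), with a median of 0.39. Ddit3 was listed at 0 in every library without 4OHT, which can be a failed estimate, and Sesn2 is also counted among the p53 genes. Of 14 tested markers of other cells, Myod1, a factor of muscle, was called (7.14% of the list), at 0.07 and 0.26 FPKM and at 2.29 and 3.98 FPKM, and it reached the filter only through the 4OHT + siDnmt1 libraries.

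**Figure D3:**
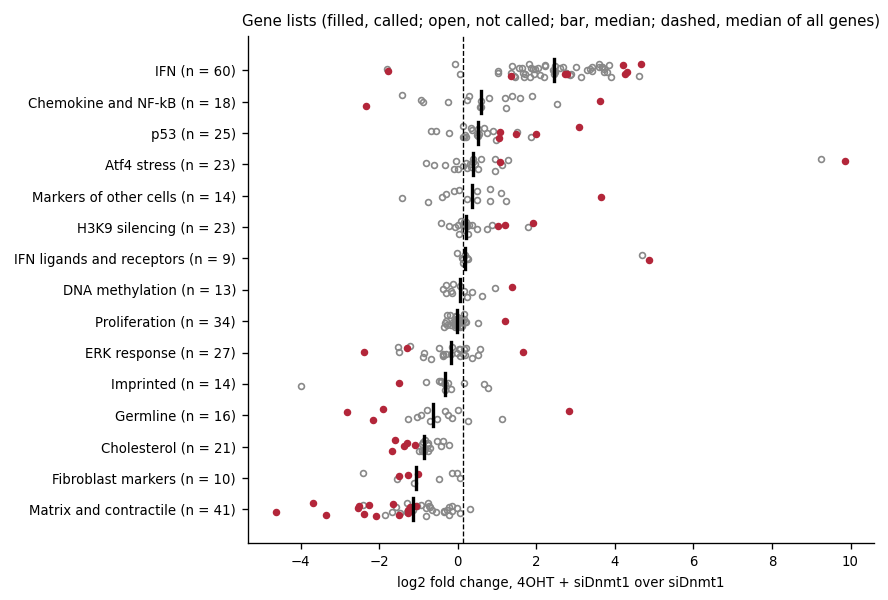
Log2 fold change of 4OHT + siDnmt1 over siDnmt1 (horizontal axis) for each tested member of 15 gene lists, filled where called and open where not, with the list median as a bar and the median of all genes, 0.14, as a dashed line. The IFN list has the highest median (2.46) and the matrix list the lowest (-1.14).

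The study lists genes that it found raised by Setdb1 deletion in other libraries of these cells. Of 186 of them tested here, 46 were called higher (24.7%, against 3.42% of all genes) and 3 lower (1.61%, against 2.3%), with a median of 1.496. Without 4OHT + siCtrl replicate 2 it was 108 higher and 3 lower of 184, against 5.9% and 3.23% of all genes. The list contains IFN genes and is not independent of the lists above.

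The ERV families were measured through assembled loci without a gene that lay at least 50% inside a listed element. The fragments of each locus were inferred from the confidence interval of its FPKM and summed by family. Element FPKM is this sum over the summed length of all elements of the family and the library depth. VL30 class I (71 elements) rose from 2.94 and 2.85 to 24.9 and 23.01 element FPKM, an 8.29-fold difference of means (log2 fold change 3.01, standard error 0.27, adjusted p = 0.00502, limma). Class III rose from 1.16 and 1.11 to 6.67 and 4.94 element FPKM and class IV from 1.05 and 1.01 to 7.25 and 5.62 element FPKM (adjusted p = 0.0134 and 0.0128, limma). In 4OHT + siCtrl, class I was at 13.0 and 22.5 element FPKM. Class II was at 0 in siDnmt1, and 4OHT + siDnmt1 gave 0.27 and 0.04 element FPKM, with an adjusted p of 0.317 (limma).

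IAPEz (593 elements), which siDnmt1 alone brought to 4.39 element FPKM in each library, was lower with 4OHT added, at 1.93 and 1.41 element FPKM, 2.63-fold less (log2 fold change -1.36, standard error 0.34, adjusted p = 0.0499, limma; 0.0216 without 4OHT + siCtrl replicate 2). The call was lost under 12 of its 20 alternatives. MMERVK10C went from 0.0016 and 0.0023 to 0.30 and 0.32 element FPKM (log2 fold change 2.01, standard error 0.58, adjusted p = 0.0666, limma; 0.0307 without 4OHT + siCtrl replicate 2), and in siCtrl it was listed at 0. With a pseudocount of 1 the MMERVK10C value was 0.39, and with 0.01 it was 4.75. RLTR4 was at 0.45 and 0.42 and at 1.20 and 0.56 element FPKM (adjusted p = 0.215, limma). Because the aligner kept 1 position per read, copies that are near identical cannot be told apart within a family. A listed element lay within 10 kb of 14 of the 368 genes called higher (3.8%) and of 6 of the 248 called lower (2.42%), against 1.85% of all genes tested.

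**Figure D4:**
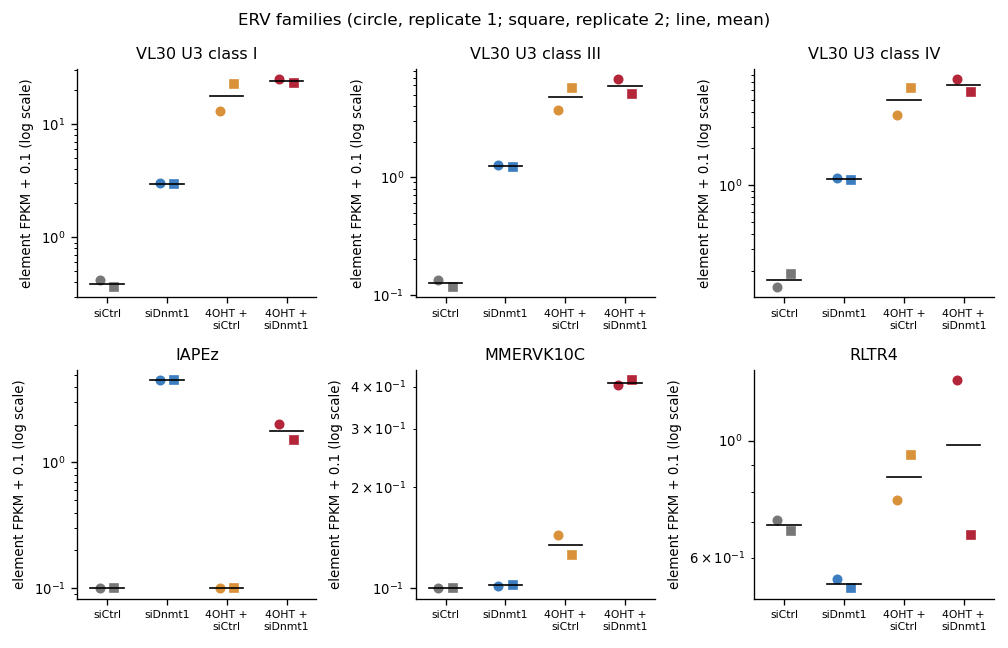
Element FPKM + 0.1 on a log axis for 6 ERV families in the 2 libraries of each group, with the mean as a line. VL30 classes I, III and IV and MMERVK10C are highest or near highest in 4OHT + siDnmt1, and IAPEz is highest in siDnmt1, at 4.39 element FPKM.

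Whether 4OHT acted differently where Dnmt1 was low was tested as the difference of its effects in siDnmt1 and in siCtrl cells. It called 13 genes higher (0.121% of genes tested) and 8 lower (0.0743%), with 1077 at an unadjusted p-value under 0.05, and 15 of these 21 were at 0 FPKM in at least 1 library. Without 4OHT + siCtrl replicate 2, it called 49 higher (0.457%) and 37 lower (0.345%), and without 4OHT + siCtrl replicate 1 it called 327 higher and 155 lower. Among genes above 0 in all 8 libraries, 6 were called. Mrpl35, which encodes a protein of the mitochondrial ribosome, stayed between 7.73 and 9.77 FPKM in the other 3 groups and was at 66.6 and 62.8 FPKM in 4OHT + siDnmt1 (difference 2.86 on the log2 scale, standard error 0.15, adjusted p = 0.00186, limma). Its locus (mm9 chr6:71762991-71773778) had the same bounds in 7 of the 8 libraries and began at 71760508 in 4OHT + siDnmt1 replicate 1. Ubxn7, a cofactor of the segregase p97, was between 5.68 and 8.71 FPKM elsewhere and at 22.1 and 20.3 FPKM in 4OHT + siDnmt1 (difference 1.69, standard error 0.18, adjusted p = 0.0388, limma).

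Fbn2 fell further with Dnmt1 low than without. It was at 39.6 and 35.7 FPKM in siCtrl, 8.39 and 8.58 FPKM in 4OHT + siCtrl, and 2.19 and 2.27 FPKM in 4OHT + siDnmt1 (difference -1.48, standard error 0.16, adjusted p = 0.038, limma). Dcn fell less: it was at 49.4 and 49.2 FPKM in siCtrl and 1.40 and 1.39 FPKM in 4OHT + siCtrl, below its 3.92 and 3.63 FPKM in 4OHT + siDnmt1 (difference 2.96, standard error 0.16, adjusted p = 0.00186, limma). The transcription factor gene Osr2 was at 29.6 and 32.5 FPKM in siCtrl and under 2.1 FPKM in every library of the other groups, and at 1.58 and 2.04 FPKM in siDnmt1 (difference 4.05, adjusted p = 0.0435, limma). Sulf2, a sulfatase of heparan sulfate, was at 20.7 and 21.2 FPKM in siCtrl and 10.8 and 11.3 FPKM in 4OHT + siCtrl, and at 3.93 and 3.92 FPKM in siDnmt1 and 6.00 and 6.46 FPKM in 4OHT + siDnmt1 (difference 1.58, standard error 0.16, adjusted p = 0.0346, limma).

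**Figure D5:**
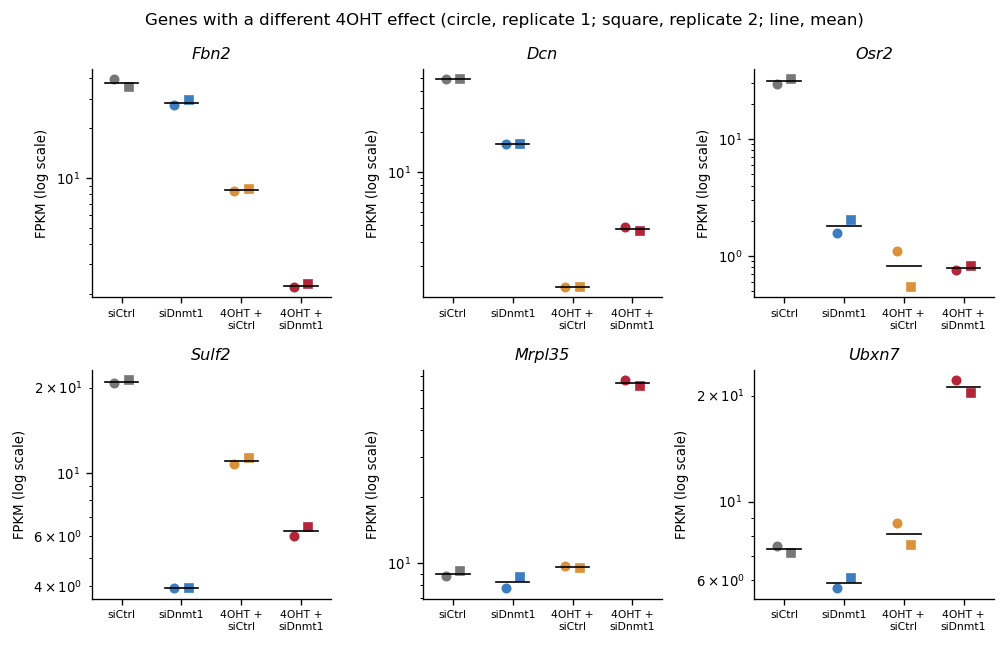
FPKM on a log axis for the 6 genes called for the difference of the 4OHT effects, in the 2 libraries of each group with the mean as a line. Mrpl35 and Ubxn7 are high in 4OHT + siDnmt1 only, at 66.6 and 62.8 FPKM and at 22.1 and 20.3 FPKM.

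None of the 60 IFN genes was called for the difference by limma with all 8 libraries, and 3 had an unadjusted p-value under 0.05. Their median difference was 0.94 with all 8 and -0.68 without 4OHT + siCtrl replicate 2, where that of Ifih1 was -1.08. The direction of the median thus rests on that library. For VL30 class I, 4OHT added less on the log2 scale in siDnmt1 cells than in siCtrl cells, where the level before 4OHT was 0.32 and 0.26 element FPKM (difference -2.46, standard error 0.38, adjusted p = 0.127, limma; -2.06 and 0.0325 without that library). Of the 14 matrix genes called lower, Dcn was called higher for the difference, as were 0.121% of all genes tested. No cholesterol, germline or p53 gene was called for it with all 8 libraries, where 3, 5 and 6 of them had an unadjusted p-value under 0.05 (limma). Without 4OHT + siCtrl replicate 2, which leaves 1 library in that group, the difference was 1.22 for Cdkn1a, -1.49 for Thbs2 and negative for Gadd45a. The median difference was then 0.44 for p53 genes and -0.08 for matrix and contractile genes, against 0.07 for all genes.

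The changes with 4OHT in siDnmt1 cells and in siCtrl cells, which share no library, were related across genes. Pearson's r of the mean change in siDnmt1 cells was 0.58 with the change in 4OHT + siCtrl replicate 1 and 0.38 with that in replicate 2, over 10772 genes that are not independent of each other and have the same lengths and annotation. Of the genes called higher here, 121 were called higher with 4OHT in siCtrl cells too, 32.9% of the 368 and 42.6% of the 284 (2.64% of genes tested). Of those called lower, 151 were shared, 60.9% of the 248 and 40.4% of the 374 (3.47%). The genes called in opposite directions numbered 1 of each kind. Both sets of calls used the same estimate of each gene's spread, from all 8 libraries. A gene with a small spread is more easily called in both, so the calls are not independent. The shares of all genes tested are therefore no baseline for the overlap.

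In another experiment on these cells, with no siRNA, 2 untreated and 2 4OHT day 6 libraries give values beside these. Mx1 was at 0.20 and 0.28 FPKM untreated and at 8.72 and 55.0 FPKM with 4OHT, Fbn2 at 56.1 and 63.5 FPKM and at 4.72 and 5.90 FPKM, and Cyp51 at 169 and 165 FPKM and at 37.4 and 30.2 FPKM. Mrpl35 was at 8.47 and 8.63 FPKM and at 12.4 and 11.4 FPKM, and Ubxn7 at 8.19 and 8.12 FPKM and at 6.75 and 9.52 FPKM. The tables were made separately and no test was run between them.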

How the data were processed

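RNA of the siRNA experiment was sequenced as single reads. For alignment to mm9 the authors used TopHat2 2.0.12 and kept 1 position per read. Assembly by Cufflinks, guided by RefSeq, was done per library, and the deposited values are FPKM per locus with confidence intervals. Loci of 1 symbol were summed. Of 24204 symbols or joined symbols, 1424 lacked a locus in some library and 1084 named Mir or Snor were left out, which left 21696. Groups came from the labels, except that the control siRNA of the 4OHT + siCtrl group came from the study's text. limma 3.58.1 in R 4.3.3 was fitted to log2(FPKM + 0.1) of all 8 libraries with trended variances, two-sided, and tested on simulated data: of 100 genes changed by 1.5 on the log2 scale 59 were called, of 100 changed by 3 it was 89, with 7 false calls. The simulated noise was independent between genes, its spread did not follow the level, and the changed genes were not drawn from low levels. No simulated library stood apart as 4OHT + siCtrl replicate 2 did, so these figures check the code and need not hold for the real libraries. Depth, from intervals and lengths, bounds what can be detected. Named genes are Setdb1, Dnmt1 and 8 that the study names, the 12 highest and 12 lowest called, up to 4 per role of each list, up to 6 each way for the difference and 3 each way listed at 0. Vim, Cd3e, Rnf31, Mb21d1, Isg15, Ifit1, Isg20, Ifitm1, Tmem173, Thy1 and Gadd45a were chosen after their values were seen. Members and lists were chosen with earlier results of these data known. Alternatives covered pseudocounts, filters, scalings, libraries left out, a replicate block and the handling of loci. Other steps used Python 3.11.15, pandas 2.3.3, numpy 2.4.6 and matplotlib 3.10.9. Deposited comparison tables of fold changes and p-values by the authors were not used. Some items are not reported here.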

Additional observations from a re-analysis of the deposited data

Results flagged for a closer look

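The 6 genes below were tested for a difference between the 4OHT effect in siDnmt1 cells and that in siCtrl cells and passed (limma, adjusted over all 10772 genes tested). The differences, on the log2 scale and as the effect in siDnmt1 cells minus that in siCtrl cells, were 4.05 for Osr2, 2.96 for Dcn, 2.86 for Mrpl35, 1.69 for Ubxn7, 1.58 for Sulf2 and -1.48 for Fbn2. Dcn and Mrpl35 were called under all 18 alternatives, with adjusted p-values of up to 0.0443 and 0.0351. Osr2 was called under 7, Fbn2 under 9, and Ubxn7 and Sulf2 under 10 each, with adjusted p-values of up to 0.283, 0.256, 0.24 and 0.254, and each kept its direction. With only genes above 0 FPKM in all 8 libraries in the fit, Dcn and Mrpl35 were the 2 called. No group holds 4 libraries, so single libraries were not tested as outliers.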

How the results depend on the processing

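The counts of called genes changed more with the libraries in the fit than with the pseudocount. Genes called higher, 368, were 220 with a filter of 5 FPKM, 223 with median-ratio scaling, 237 with quantile normalization, 561 with only the 4 compared libraries and 991 with no limit on the fold change, and genes called lower, 248, were 375 with quantile normalization and 495 with no limit on the fold change. With 1 library left out, they ran from 22 to 634 and from 28 to 348. For the difference, 13 higher became 26 with a pseudocount of 1, 32 with no filter, 8 with a filter of 5 FPKM, 31 with joined loci counted for each gene and 2 with genes above 0 in all libraries. The 8 lower became 19 with no filter, 17 with joined loci and 0 with genes above 0, and 1 library left out gave 6 to 327 higher and 3 to 155 lower. The IFN genes called higher, 7, were 4 with no filter or median-ratio scaling, 53 with the 4 compared libraries and 11 with genes above 0 in all libraries, and from 0 to 54 with 1 library left out. The matrix genes called lower ran from 4 to 21, and the genes of the study's list called higher were 100 with the 4 compared libraries and from 3 to 108 with 1 left out. The IAPEz call was lost with a pseudocount of 0.01 (-1.40), a filter of 5 FPKM (-1.36), quantile normalization (-1.68), 90% of a locus inside an element (-1.28) and joined loci counted for each gene (-1.36), and ran from -1.57 to -1.14 with 1 library left out. MMERVK10C was called with no filter and with genes above 0 in all libraries (2.01 in both), ran from 1.99 to 2.03 with 1 library left out, and was 0.39 with a pseudocount of 1, 4.75 with a pseudocount of 0.01 and 0.95 with quantile normalization. VL30 class I ran from 2.95 to 3.06. Setdb1 changed sign with median-ratio scaling (-0.062) and quantile normalization (-0.14), and ran from -0.10 (without 4OHT + siDnmt1 replicate 2) to 0.25 with 1 library left out. Dnmt1 changed sign with median-ratio scaling (-0.079) and quantile normalization (-0.12), and ran from -0.041 (without siDnmt1 replicate 2) to 0.16. Neither was called in any of these. Single genes and smaller families gave 1565 other values, of which 1262 kept the direction and stayed on the same side of the threshold, results that were not called included. The causes were not tested.

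Same-numbered libraries did not deviate together (correlations from -0.06 to 0.03), so the numbers do not pair them. With the replicate number as a block, 282 genes were called higher and 186 lower, the difference called 7 higher, and the IAPEz call was lost (-1.36). Leaving out siCtrl and 4OHT + siCtrl libraries, joined loci and genes above 0 were chosen after seeing the data.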
